A study of Homo sapiens with 16 samples.

Results

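Distal 7q, the end of the long arm of chromosome 7 from position 145000000 onward on GRCh37, held 278 of the 44922 intervals in 4 lists of TOP2B-bound DNA from PC9 cells. PC9 is an established human lung adenocarcinoma line whose growth depends on a mutant EGFR. The intervals belong to distal 7q when the midpoint of the interval lies on chromosome 7 at or above that position. The region was selected on the density of intervals in these same lists, so its counts and their ratios between conditions are given as a description with no test. Wild-type cells without drug had 206 of them and METTL7A knockout cells without drug 34, while cells under osimertinib had 32 in wild type and 6 in the knockout.

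CUT&RUN, the assay used for TOP2B, tethers a nuclease through an antibody and sequences the DNA it releases around the target. Wild-type cells and METTL7A knockout cells were each kept untreated or under osimertinib, an inhibitor of mutant EGFR. The drug was raised from 100 nM over 6 to 8 weeks. Each of these 4 conditions had 2 replicate TOP2B libraries and 1 deposited list that joins them, and the labels do not say whether the replicates were separate cultures or whether the knockout is 1 clone. A list has no replicate of its own, so the spread between replicates is unknown and conditions are compared without a test. All 95% intervals below cover counting error only, and neighbouring peaks are not independent. Nothing used here measures METTL7A itself, so the genotypes rest on the labels, and the 8 samples of the H2A antibody were not analysed here.

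TOP2B is the beta isoform of DNA topoisomerase II, an enzyme that cuts both strands of a DNA duplex, passes another duplex through the gap and reseals it, which releases the twist and tangles that transcription and looping create. It is known for binding at active promoters and at the anchors of chromatin loops beside CTCF and cohesin. METTL7A belongs to the methyltransferase-like family of proteins. Distal 7q ends at the telomere of the long arm and alternates long genes with gene-dense stretches. In the RefSeq gene table of GRCh38.p14, 87 protein-coding genes lie from CNTNAP2, a long neuronal cell adhesion gene, to the end of the chromosome. In that order come EZH2, the catalytic subunit of a Polycomb repressive complex, a run of zinc finger genes from ZNF786 to ZNF775, and the GIMAP genes of lymphocyte GTPases. KCNH2, a cardiac potassium channel gene, NOS3, the endothelial nitric oxide synthase gene, and KMT2C, a histone methyltransferase gene, follow. DPP6, SHH, a developmental signal, PTPRN2 and VIPR2 lie toward the telomere. That table is on another build than the lists, so single intervals were not assigned to genes or promoters, and their sequences are not shown.

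The untreated wild-type list held 206 of its 15281 intervals in distal 7q, a share of 1.35% (95% interval 1.17 to 1.54). Untreated knockout held 34 of 12493, or 0.272% (0.189 to 0.38). Treated wild type held 32 of 9655, or 0.331% (0.227 to 0.468), and treated knockout held 6 of 7493, or 0.0801% (0.0294 to 0.174). Untreated wild type stood above the other lists, treated knockout was lowest, and the untreated knockout and treated wild-type shares lay within each other's counting intervals. Without drug these intervals covered 545 kb in wild type and 54.9 kb in the knockout, and under osimertinib 36.4 kb and 4.4 kb. Of all chromosome 7 intervals, distal 7q took 12.6% (wild type) and 2.5% (knockout) without drug, and 8.74% and 0.519% under osimertinib.

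**Figure D1:**
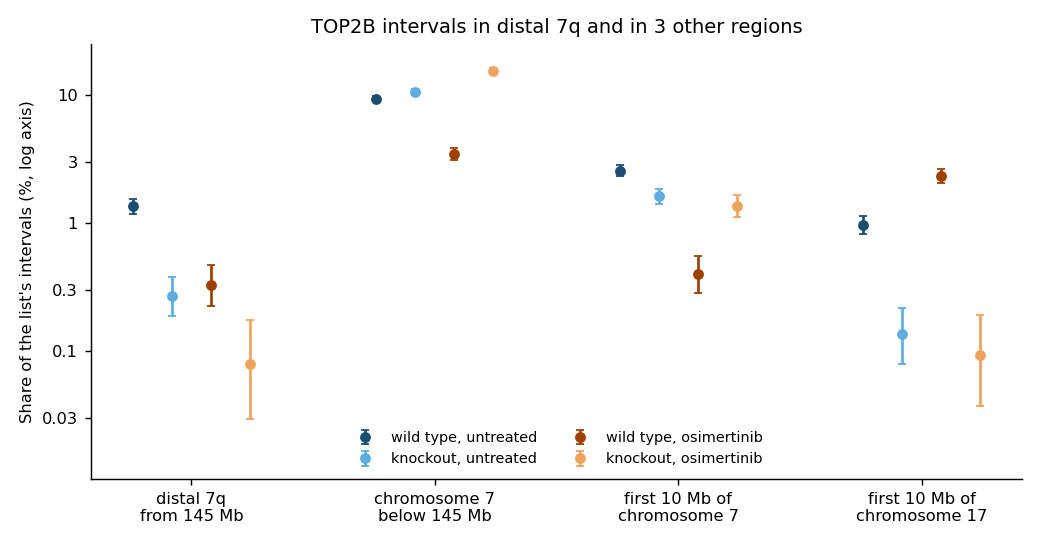
The share of each list's intervals (percent, log axis) is plotted for distal 7q and 3 other regions, with a point per list and bars for the exact 95% interval. In distal 7q untreated wild type is highest at 1.35% and treated knockout lowest at 0.0801%, a combination found in none of the other 3 regions. Untreated wild type is also highest in the first 10 Mb of chromosome 7 (2.57%). Treated knockout is also lowest in those of chromosome 17 (0.0934%).

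The rest of chromosome 7, taken as a whole, was distributed otherwise among the lists. Before distal 7q, chromosome 7 held 1430 wild-type and 1324 knockout intervals without drug, and 334 and 1149 under osimertinib. The share of the knockout list relative to the wild-type list was 1.13 (1.05 to 1.22) without drug and 4.43 (3.92 to 5.02) under osimertinib. For distal 7q the same ratios were 0.202 (0.136 to 0.291) and 0.242 (0.0826 to 0.586). The opposite end of the chromosome, its first 10 Mb, held 393 and 202 without drug and 39 and 102 under it, with ratios of 0.629 (0.528 to 0.747) without drug and 3.37 (2.31 to 5.01) under osimertinib. The first 10 Mb of chromosome 17, with 148 and 17 intervals in the untreated lists, had a low knockout ratio too (0.14, 0.0797 to 0.233). Under osimertinib that region held 225 and 7, with a ratio of 0.0401 (0.0159 to 0.084). A low knockout ratio was thus not particular to distal 7q. The chromosome 17 region differed from distal 7q under osimertinib in wild type, where it rose to 225 intervals. Distal 7q had 32 against 206 without drug. The ratio of treated to untreated wild type was 2.41 (1.95 to 2.98) at chromosome 17 and 0.246 (0.164 to 0.358) at distal 7q. These ratios were not tested against each other.

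Untreated wild type had few intervals just before distal 7q and both knockout lists had none, while treated wild type had nearly as many there as in the region. In the 15 Mb before the boundary, untreated wild type had 4, 2 and 5 intervals in successive windows of 5 Mb, treated wild type had 11, 3 and 12, and both knockout lists had 0. Beyond it, windows of the same size held 47, 69 and 90 in untreated wild type against 9, 16 and 9 in untreated knockout. Treated wild type had 13, 14 and 5, and treated knockout had 2 in each. The boundary itself fell in an empty stretch. The 3 members nearest to it, all of untreated wild type, lay at 147404351 to 147406450, 147711851 to 147714500 and 147718451 to 147719500, with maxima of 13, 10 and 14 steps. A step is the smallest unit of peak height in a list. Each maximum is that of the called peak and can lie outside the listed interval. The 3 intervals nearest to it outside were at 142980451 to 142984950 and 143017751 to 143019550 in untreated wild type and at 143079051 to 143080700 in treated wild type, with maxima of 7, 9 and 9 steps.

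Within distal 7q, intervals fell into 2 occupied blocks separated by a sparse stretch. Below 147 Mb no list had an interval, and from 152 to 154 Mb untreated wild type had 4 and the other lists 0. The block from 147 to 152 Mb held 99 wild-type and 23 knockout intervals without drug, and 27 and 4 under osimertinib. The block from 154 Mb to the end held 103 and 11 without drug, and 5 and 2 under osimertinib. These blocks were drawn after the data had been seen.

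Untreated wild type filled both blocks about equally, with 48.1% (41.1 to 55.1) and 50% (43 to 57) of its distal 7q intervals. Treated wild type lay mainly in the first block, with 84.4% (67.2 to 94.7) there and 15.6% (5.28 to 32.8) in the second. Untreated knockout had 67.6% (49.5 to 82.6) in the first block and 32.4% (17.4 to 50.5) in the second. Treated knockout, with 4 and 2 intervals, was too thinly filled to place.

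**Figure D2:**
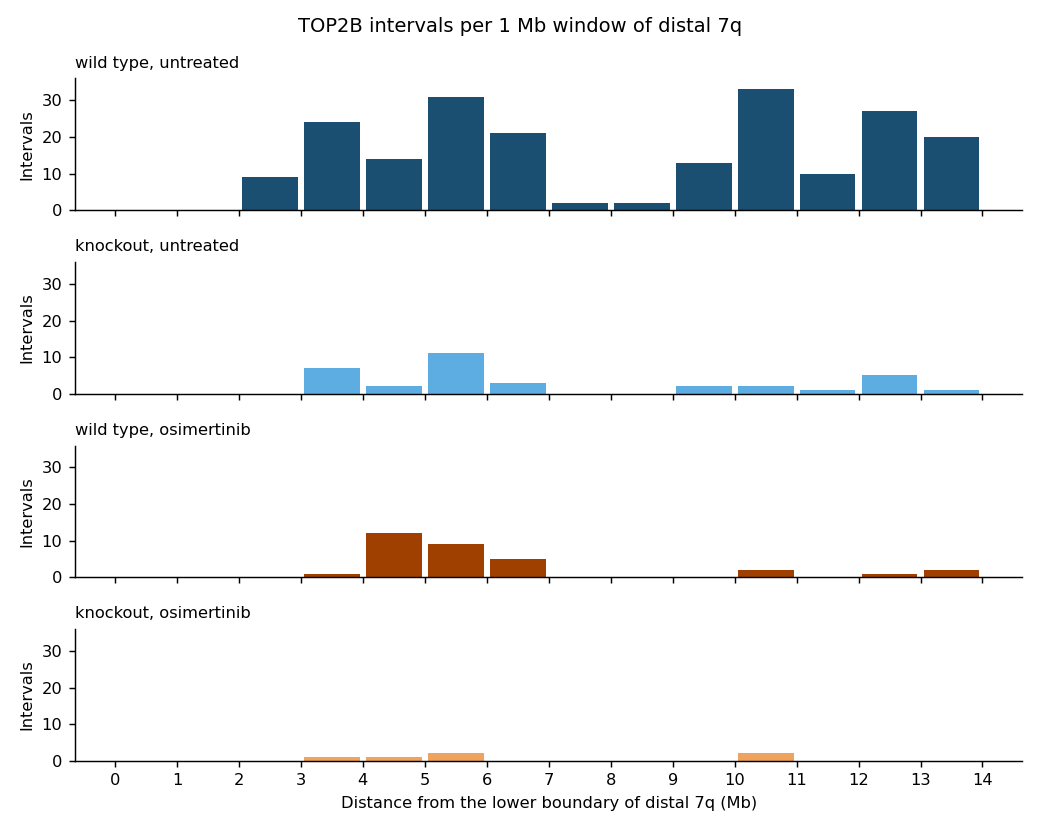
Bars give the number of TOP2B intervals per 1 Mb window, against the distance of the window from the lower boundary of distal 7q in Mb, with a panel for each list. Untreated wild type has bars in both blocks around the sparse stretch at 7 to 9 Mb from the boundary, and treated wild type has 12 intervals at 4 to 5 Mb from it, near the 14 of untreated wild type.

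Knockout and wild type without drug were set side by side to see where TOP2B binding differs when METTL7A is lost. Every window of 1 Mb with at least 10 intervals in either list had a lower share in the knockout. The 2 windows with the least difference were 150 to 151 Mb, with 31 wild-type and 11 knockout intervals (share ratio 0.434, 0.197 to 0.887), and 148 to 149 Mb, with 24 and 7 (0.357, 0.13 to 0.853). The windows with the greatest difference lay toward the telomere, at 158 to 159 Mb with 20 and 1 (0.0612, 0.00148 to 0.382) and at 155 to 156 Mb with 33 and 2 (0.0741, 0.00862 to 0.29). The first block had a ratio of 0.284 (0.172 to 0.451) and the second 0.131 (0.0632 to 0.244), with counting intervals that overlap. In all 6 windows with at least 20 intervals the knockout share was lower by 2-fold or more, beside 13.4% of such windows over the genome. Since the region was chosen for this density, the count repeats the choice.

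Position by position, few wild-type intervals of distal 7q recurred in the knockout. Of the 206 wild-type intervals, 12 were overlapped by at least 1 bp by an untreated knockout interval, 5.83% (3.05 to 9.95), beside 35.1% over the whole wild-type list. Of the 34 knockout intervals, 12 overlapped a wild-type interval, 35.3% (19.7 to 53.5), beside 53.7% over the whole knockout list. Among wild-type intervals of 1950 to 3100 bp, the middle range of width here, 4 of 104 in distal 7q had a knockout counterpart (3.85%, 1.06 to 9.56) against 28% (26.9 to 29.1) of 6440 in the rest of the list. An overlap is likelier where the other list is dense, and the knockout list is sparse here. At the first 10 Mb of chromosome 17, where the knockout list is sparse too, 4.73% (1.92 to 9.5) of the wild-type intervals had a counterpart.

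Most knockout intervals lay on or near a wild-type interval, here as over the whole list. The median gap from a knockout interval of distal 7q to the nearest wild-type interval was 1.88 kb, and 27 of 34 lay within 20 kb (79.4%, 62.1 to 91.3), beside 86.6% over the whole list. Among the 22 that overlapped none, the median gap was 4.78 kb and 15 lay within 20 kb. In the other direction the median gap was 58.8 kb. A knockout interval lay within 20 kb of 52 of 206 wild-type intervals (25.2%, 19.5 to 31.7), beside 74.8% over the whole list. A near interval is likelier where the other list is dense, and the knockout list is sparse here. In the first 10 Mb of chromosome 17, sparse in knockout too, 21 of 148 wild-type intervals had a knockout interval within 20 kb. A share this low was thus not particular to distal 7q. The knockout intervals farthest from wild type were at 158465351 to 158467050, with a gap of 139 kb, and at 156155701 to 156158900, the widest of the knockout list here, with a gap of 113 kb. These were singled out after their values were seen.

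**Figure D3:**
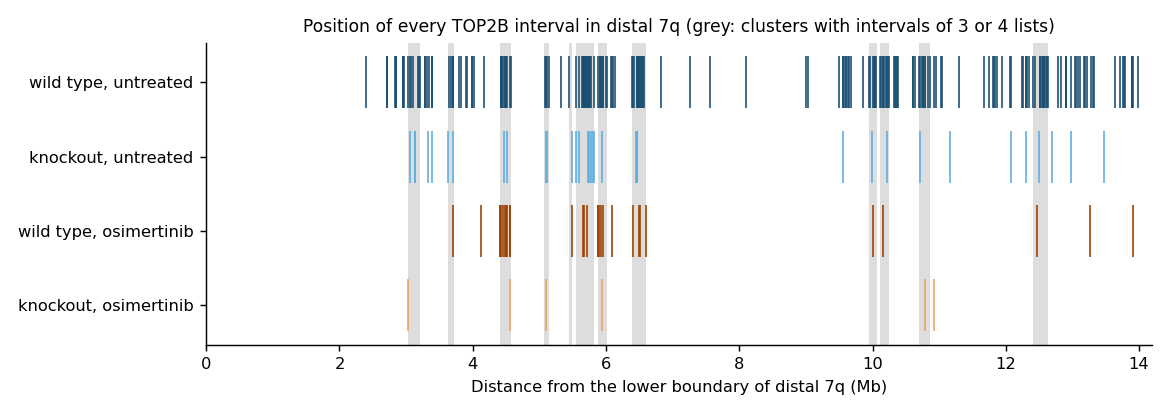
Each vertical line is a TOP2B interval of distal 7q, placed by its midpoint at its distance from the lower boundary in Mb, with a row for each list. Grey bands mark the 12 clusters that hold intervals of 3 or 4 lists, and 8 of the 12 lie under 7 Mb from the boundary.

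TOP2B binding after weeks of osimertinib was compared first in wild-type cells. In the first block the share ratio of treated to untreated was 0.432 (0.271 to 0.666), and in the second it was 0.0768 (0.0244 to 0.185). The blocks were drawn after the data had been seen and their difference was not tested. A single cluster, at 149411001 to 149574050, gave 11 of the 27 treated intervals of the first block. The window at 149 to 150 Mb was the only one of 9 windows with at least 10 intervals whose share was not lower, with 14 untreated and 12 treated (1.36, 0.573 to 3.16), although the treated list was shorter. The next highest window was 150 to 151 Mb with 31 and 9 (0.459, 0.192 to 0.989). The lowest were 154 to 155 Mb with 13 and 0 (upper bound of the ratio 0.519) and 156 to 157 Mb with 10 and 0 (upper bound 0.706). In all 6 windows with at least 20 intervals the treated share was lower by 2-fold or more, beside 37.5% of such windows over the genome. With each called peak counted once, 3 of 4 such windows did. All 6 windows reached 20 intervals through untreated wild type only. Since the region was chosen for this density, the count repeats the choice.

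Most treated wild-type intervals lay near an untreated one, and fewer overlapped it. Of the 32 treated intervals, 12 overlapped an untreated interval (37.5%, 21.1 to 56.3), beside 28.7% over the whole list. Within 20 kb of an untreated interval lay 28 of 32 (87.5%, 71 to 96.5), beside 61.8% over the whole list, and the median gap was 0.625 kb. That share was 100% (91 to 100) in the first 10 Mb of chromosome 7 and 73.8% (67.5 to 79.4) in those of chromosome 17. On chromosome 7 before distal 7q it was 62% (56.5 to 67.2). A near interval is likelier where the untreated list is dense, as it is here. Of the 20 treated intervals with no overlap, 16 lay within 20 kb, with a median gap of 3.2 kb. Of the 206 untreated intervals, 12 had a treated counterpart (5.83%, 3.05 to 9.95), beside 14.8% over the whole list. Chromosome 7 before distal 7q gave 8.18% (6.81 to 9.72) for that share and the first 10 Mb of chromosome 17 gave 31.8% (24.4 to 39.9). The first 10 Mb of chromosome 7 gave 4.58% (2.74 to 7.14), so a share this low was not particular to distal 7q.

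The same 206 untreated wild-type intervals served both comparisons, and each left 12 of them with a counterpart. Of the 25 positions shared by 2 or more lists, 10 joined untreated wild type with untreated knockout only, 11 joined untreated with treated wild type only, and 1 joined these 3 lists. Both comparisons share the untreated wild-type list, so their counts are not independent.

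In the knockout, osimertinib against no treatment left little to compare. The 34 untreated and 6 treated intervals had 0 overlaps, with exact upper bounds of 10.3% of the untreated and 45.9% of the treated intervals, beside 23.4% and 43.7% over the whole lists. The share ratio was 0.294 (0.101 to 0.709). The single window with at least 10 intervals was 150 to 151 Mb, with 11 untreated and 2 treated (0.303, 0.0327 to 1.39). The median gap from a treated interval to the nearest untreated knockout interval was 37.9 kb. Measured to untreated wild type instead, the gaps of the 6 treated knockout intervals were between 0 and 5.05 kb. Untreated wild type had 206 intervals here against 34 of untreated knockout, so a shorter gap to it is likelier.

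Under osimertinib, knockout against wild type compared 6 intervals with 32. A single position was shared, so that 3.13% (0.0791 to 16.2) of the wild-type and 16.7% (0.421 to 64.1) of the knockout intervals had a counterpart, beside 10.5% and 13.4% over the whole lists. The knockout share was 0.242 of the wild-type share (0.0826 to 0.586). The only window with at least 10 intervals was 149 to 150 Mb, with 12 wild-type and 1 knockout interval (0.107, 0.00251 to 0.726). The second block held 5 and 2 intervals (0.515, 0.0491 to 3.15), too few to show a difference. Elsewhere on chromosome 7 the treated knockout exceeded treated wild type, as given above.

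**Figure D4:**
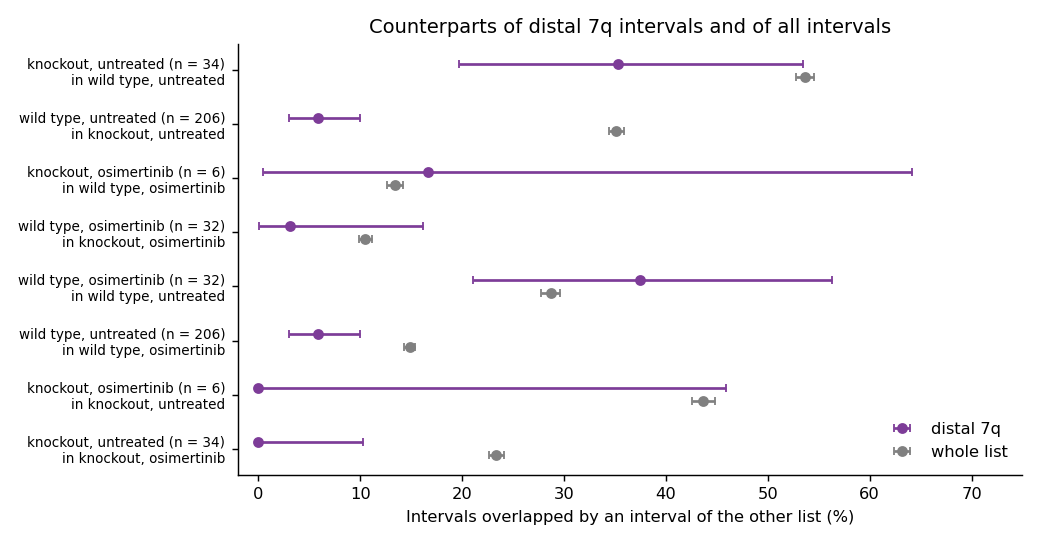
Points give the percentage of intervals overlapped by at least 1 bp by an interval of the other list, for distal 7q and for the whole list, with bars for exact 95% intervals. For untreated wild type in untreated knockout the distal 7q share of 5.83% lies below the 35.1% of the whole list, and for treated in untreated wild type the 37.5% of distal 7q lies above 28.7%, with a counting interval that includes it.

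Merging overlapping intervals of the 4 lists gave 251 positions in distal 7q. Of these, 226 were in a single list (90%, 85.6 to 93.4), against 72.9% of the 29197 positions over the genome. No position was in all 4 lists (upper bound 1.46%), against 2.29% over the genome. Treated knockout occupied only 6 positions here, so few could be in all 4 lists. The region was chosen for its density in these lists, so both shares repeat the choice in part. Positions in a single list were mostly those of untreated wild type, with 182, and the others were 22 of untreated knockout, 19 of treated wild type and 3 of treated knockout.

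Only 2 positions were in 3 lists. The first, at 149512601 to 149521800, was the widest interval of distal 7q in untreated wild type (9200 bp) and also held intervals of untreated knockout and treated wild type. Its maxima were 13 steps for wild type and 4 for the knockout without drug, and 10 for wild type under drug. Relative to the median of each list these were 1.08, 0.8 and 0.909. A step differs in size between lists, so steps of different lists cannot be compared. The other, at 150940801 to 150944400, had 12 steps for untreated wild type, 3 for untreated knockout and 8 for treated knockout. Next by the summed maximum relative to each list's median was 149559201 to 149560650, the position that both treated lists shared, with 15 steps in wild type and 8 in the knockout. Untreated wild type had no interval there, and its nearest interval was 1.3 kb from the knockout one and 1.7 kb from the wild-type one.

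The spacing of intervals within distal 7q differed between the lists as their numbers did. The median gap between neighbours was 17.4 kb in untreated wild type, where 113 of 205 gaps were under 20 kb, and 188 kb in untreated knockout, where 6 of 33 were. Under osimertinib it was 40.2 kb for wild type (11 of 31 under 20 kb) and 847 kb for the knockout (0 of 5). Joining intervals of all lists across gaps of up to 50 kb, a distance chosen after the data had been seen, gave 52 clusters. Of these, 30 held intervals of 1 list, 10 of 2 lists, 10 of 3 lists and 2 of all 4. Clusters that included untreated wild type numbered 49 and held 69 of the 72 intervals of the other 3 lists. That list gave 206 of the 278 intervals joined, so a cluster is likely to include it. The 3 clusters without untreated wild type were single intervals of untreated knockout.

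The 2 clusters with all 4 lists lay in the first block. The cluster at 149411001 to 149574050 held 12 wild-type and 2 knockout intervals without drug, and 11 and 1 under osimertinib. It thus accounted for 11 of the 12 treated wild-type intervals of the window at 149 to 150 Mb. The cluster at 150872501 to 151019100 held 9 and 1 without drug, and 5 and 1 under it. The most heavily filled cluster of the region, at 150550801 to 150822300, held 17 and 7 without drug, and 3 and 0 under it. A cluster at 151395801 to 151596750 held 15 and 3, and 4 and 0. In the second block, the cluster at 157406601 to 157638800 held 12 and 1 without drug and 1 and 0 under it, and that at 155325501 to 155384100 held 5 untreated wild-type intervals only.

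The median height of these peaks was below that of the whole list in every list, with only 6 peaks in treated knockout. The maximum of a called peak, the highest coverage within it, comes in whole multiples of a step that is fixed within a list, so it is given here in steps. It belongs to the called peak and need not lie inside the listed interval. Without drug it lay outside for 100 of 206 intervals in wild type and 5 of 34 in the knockout. Under osimertinib it lay outside for 21 of 32 in wild type and 3 of 6 in the knockout. The size of a step differs between lists and how it was scaled was not stated in the sources used, so heights are read within a list only. The median maximum in distal 7q was 10 steps against 12 over the list for wild type and 4 against 5 for the knockout without drug. Under osimertinib it was 9.5 against 11 and 6.5 against 8. Counting each called peak once, 19.7% (14.1 to 26.3) of 178 peaks in untreated wild type reached the list median, beside 40.5% over the list. In untreated knockout 44.1% (27.2 to 62.1) of 34 did, beside 74.2%, and in treated wild type 22.2% (8.62 to 42.3) of 27, beside 50.1%. In treated knockout it was 2 of 6 (33.3%, 4.33 to 77.7), beside 59%, which that counting interval includes.

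The area of a called peak, its coverage summed over its bases, was low as well. Areas are given relative to the lowest area in the same list. The median area without drug was 1.49 times that lowest area in wild type (1.96 over the list) and 1.23 times in the knockout (1.38). Under osimertinib it was 1.48 times in wild type (1.91) and 1.44 times in the knockout (1.63). In untreated knockout 29 of 34 peaks had an area under 1.5 times the lowest (85.3%, 68.9 to 95), beside 58.6% over the list. In untreated wild type 89 of 178 did (50%, 42.4 to 57.6), beside 34.4%. Distal 7q thus held more peaks near the lowest area of its list than the list as a whole, and the part this has in the counts was not tested. Among intervals at or above the median maximum of their own list, which with ties are 51.9% to 74.2% of a list, the share ratio of untreated knockout to wild type was 0.279 (0.144 to 0.508) and that of treated to untreated wild type 0.274 (0.118 to 0.566).

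**Figure D5:**
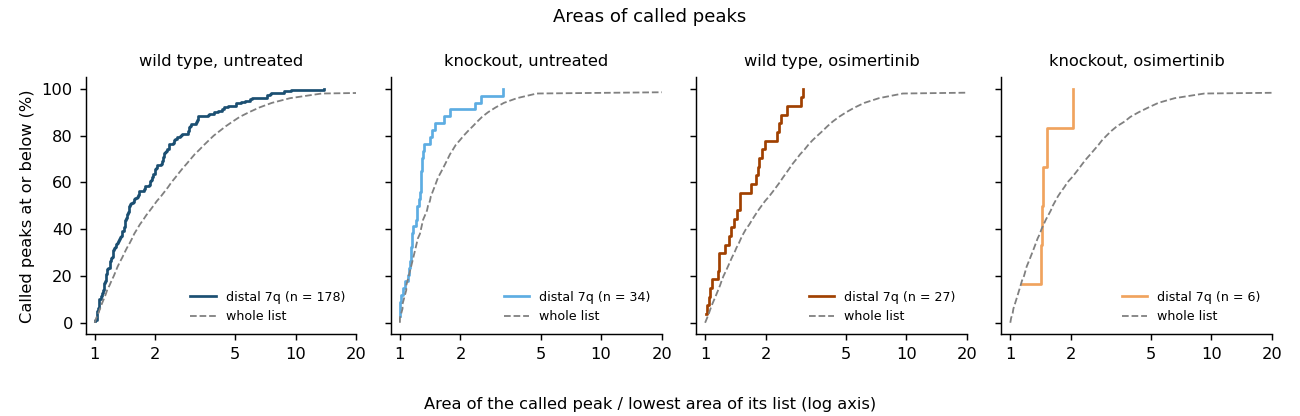
Each panel plots, for a list, the percentage of called peaks at or below a given area, with the area relative to the lowest area of the list on a log axis. The coloured line is distal 7q and the dashed grey line the whole list. In untreated knockout 85.3% of distal 7q peaks lie under 1.5 times the lowest area, against 58.6% over the list.

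The highest peaks of distal 7q in wild type were exceeded by many of their lists. In untreated wild type the highest called peak, 15 steps or 1.25 times the list median, gave the intervals at 150642251 to 150646450 and 150653451 to 150655100. A separate called peak of the same height gave 155607801 to 155607950, and 15% of the list's intervals had a higher maximum. None of these 3 intervals overlapped another list. In treated wild type a called peak of 15 steps (1.36 times the list median) gave 149558701 to 149558900 and 149559201 to 149560250, followed by 150931351 to 150932450 with 13 steps. In that list 8.16% of the intervals had a maximum above 15 steps.

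The most prominent knockout interval was at 154995751 to 154997450 in untreated cells. Its maximum was 9 steps, 1.8 times the list median, and 1.74% of the knockout list had a higher one. It overlapped no interval of the other lists, and the nearest untreated wild-type interval was 5 kb away. The next highest in untreated knockout, with 6 steps, included 157308051 to 157309500, which overlapped an untreated wild-type interval of 10 steps, and 150594151 to 150595600, which overlapped none. The 6 treated knockout intervals had maxima of 5 to 8 steps, at or below the list median. They lay at 148025751 to 148025850 (5 steps), 149560201 to 149560650 (8), 150095351 to 150096000 (5), 150943001 to 150944300 (8), 155793201 to 155793500 (7) and 155914001 to 155915600 (6). Of these, the interval at 149560201 overlapped treated wild type, those at 150943001 and 155793201 overlapped untreated wild type, and none overlapped untreated knockout.

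Median widths in distal 7q were close to those of the list in 3 lists, and treated knockout had too few intervals to place. The median width was 2450 bp (quartiles 1950 and 3100) in untreated wild type against 2600 bp over the list. It was 1625 bp for untreated knockout against 1650 bp, and 1175 bp for treated wild type against 1200 bp. In the 6 treated knockout intervals it was 550 bp against 1150 bp, but those 6 ranged from 100 to 1600 bp. The widest after the 9200 bp interval in untreated wild type was 7100 bp, at 151086751 to 151093850, and it overlapped treated wild type. The widest of treated wild type were 2100 bp at 150960801 to 150962900 and 1800 bp at 149128851 to 149130650, and of untreated knockout 3200 bp and 3050 bp, the latter at 149474901 to 149477950. Called peaks were less often in pieces here in untreated wild type. Intervals that were pieces of a split called peak made up 25.2% (19.5 to 31.7) of distal 7q and 50% of the whole untreated wild-type list, and 28.1% (13.7 to 46.7) and 49.9% in treated wild type. In untreated knockout 0 of 34 were pieces, against 3.34% over the list.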

How the data were processed

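PC9 cells were profiled by CUT&RUN. Reads were handled with SEACR, bedtools 2.30, deepTools 3.5.1, SAMtools 1.16, Bowtie2 2.4.2, FastQC and Trimmomatic (listed in no order) on GRCh37, per the submitters' processing notes. Settings and control of the peak calling, and the scaling of its coverage, were not stated in the sources used. The authors deposited 4 headerless lists, named as intersected peaks, with an area per called peak (a deposited score) and its maximum (a deposited signal, a coverage value). The depth of the libraries is unknown.

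Computation used Python 3.11.15, pandas 2.3.3 and SciPy 1.17.1. Positions are counted from 1. Shares have exact Clopper-Pearson and ratios exact conditional 95% intervals. Windows were counted as 2-fold lower from shares with 0.5 added to each count, given 20 intervals in either list. Ratios printed for single windows have nothing added. Functions were tested on simulated data.

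The members, lists and settings were chosen with earlier results of these data known. Named positions were the 3 highest and 2 widest intervals per list, the 3 positions in most lists, the 3 nearest the boundary on each side, and the 2 highest and 2 lowest windows of at least 10 intervals. Planned gene lists (63 genes, 62 matched to RefSeq names) were not counted, because the gene table is on another build. Alternatives tried were called peaks counted once, summed length, higher maxima, other boundaries, overlaps, window sizes and joining distances.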

Additional observations from a re-analysis of the deposited data

How the results depend on the processing

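All 20 alternatives for the 4 share ratios of distal 7q (called peaks counted once, summed length, higher maxima, boundaries at 140 and 150 Mb) stayed below 1 and within the counting interval of the reported ratio. For maxima at or above the list median, the intervals of both comparisons with treated knockout included 1 (0.0276 to 1.27 and 0.0286 to 1.11). With an overlap of 50% of both intervals, counterparts fell to 8.82% of untreated knockout and 1.46% of untreated wild type in the untreated comparison, to 3.13% of treated and 0.485% of untreated wild type, and to 0 for both treated lists. With those maxima only, treated and untreated wild type shared 0 intervals (9 and 46 left). Called peaks counted once gave 3 windows at least 2-fold lower in treated wild type in place of 6, with 4 in place of 6 examined; the cause was not tested. In untreated wild type they gave a median width of 2650 bp and a median maximum of 0.909 times that of the list, in place of 0.833. Joining across 100 kb gave 13 clusters of 2 or more lists in place of 22, and across 20 kb 29. No paired analysis was possible because each list joins both replicates, and for the same reason no replicate could be left out. The depth of the libraries is unknown.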
